A study of Parhyale hawaiensis with 42 samples.

Results

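The mRNAs described here were the 200 genes of the amphipod crustacean *Parhyale hawaiensis* with the highest levels at S7–11 among those that were abundant at S7–11, scarce before it and low again at the end of embryogenesis. They were chosen by the measured values themselves: the mean level of the 2 libraries of a time-point had to be highest at S7–11, at least 10 times that at S1–4 and at S5–6, and at least 4 times that at S24–30. Of 31153 genes, 3870 were highest at S7–11, 384 passed all the limits, and the 200 with the highest S7–11 mean were taken and numbered 1 to 200 in that order. The differences of S7–11 from every other time-point are therefore a description and were not tested.

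The study profiled embryogenesis with 14 mRNA libraries, 2 for each of 7 time-points, made from pooled, manually staged embryos of a wild type laboratory strain. Each time-point but S14 and S17 pooled several stages, over which a level is an average, by the study's naming. No treatment or genotype separated the groups, which differed only in the embryos' age. The time-points are named here S1–4 (1 to 8 cells in the study's account), S5–6, S7–11, S14, S17, S21–23 and S24–30, after the study. In the sample labels S5–6 is stage 6 alone and S7–11 is stages 8 to 11, and the labels mark both S1–4 libraries as total RNA of the subtype small RNA and the other 12 as polyA RNA, whereas the study's methods describe 1 poly-A selected kit for all. S1–4 differed from all later time-points in that label, and a part of it in differences from S1–4 cannot be told apart from age. Nothing in the labels says whether 2 libraries of a time-point came from separate broods, so p-values measure the spread between these libraries, which may be technical.

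In animal embryos the first cell divisions run on maternally-loaded mRNAs and proteins, while the zygotic genome is largely silent. At the maternal-zygotic transition many maternal mRNAs are cleared and the embryo's own genes are switched on in waves. In insects such as *Drosophila melanogaster*, many genes of early patterning and gastrulation are transcribed in a brief burst and give short-lived mRNAs. In *Parhyale*, cells move together and gastrulate in the stages of the third time-point, the germband then elongates and acquires segments and limb buds, and organs form later. The data measured mRNA levels and not transcription, so whether a rise came from new transcription was not measured.

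The IDs of these genes are those of a transcriptome assembled with Trinity from reads placed on the genome. Neither the files nor the study's text pair an ID with a gene name, so no member has a name or a known role here, and members go by their number. Whole embryos were used, so no cell type is claimed, and fewer cells of a type and less RNA per cell cannot be told apart. Levels are given as CPM, a gene's estimated count per 1000000 counts of the library, and are shares of a library and not molecules per embryo. Levels are compared between genes only in TPM, transcripts per 1000000, which also takes transcript length into account. The totals ran from 41354642 to 64892281 counts a library, with a median of 53153516.

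All 200 members together took a small share of the early libraries and a large one at S7–11. They held 0.294% and 0.293% of the counts in the S1–4 libraries, 0.257% and 0.246% at S5–6, and 4.27% and 4.27% at S7–11. Thereafter the share was 2.51% and 2.50% at S14, 1.19% and 1.18% at S17, 0.676% and 0.686% at S21–23, then 0.321% and 0.324% at S24–30. The libraries of a time-point lay far closer to each other than to those of any neighbour, and the last time-point came back to about the level of the first. The rule fixed the low ends of this course, but not the size of the steps between S14 and S21–23.

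**Figure D1:**
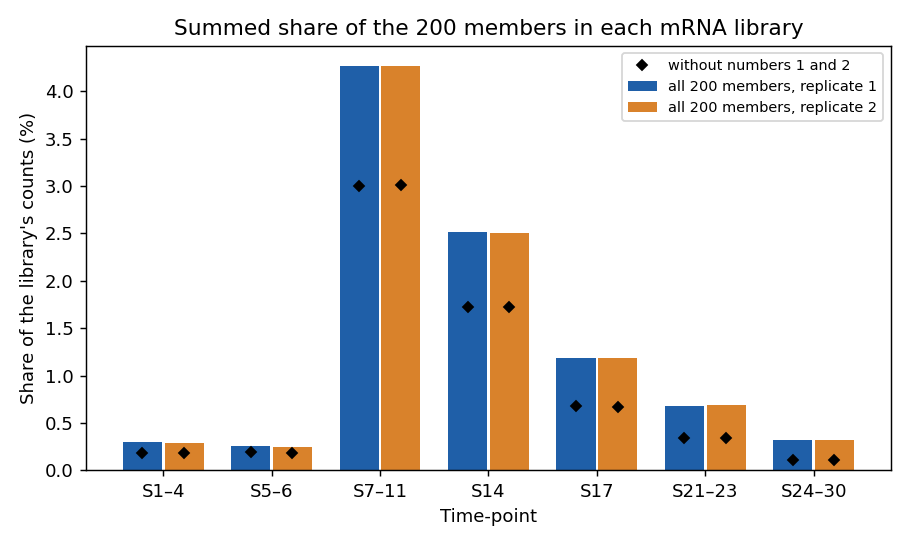
Share of each library's counts (%, y axis from 0) held by the 200 members at the 7 time-points (x axis); bars are the 2 replicate libraries and diamonds the same sum without numbers 1 and 2. Both S7–11 bars stand at 4.27%, and both S24–30 bars are back near 0.32%.

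A few members carried most of this signal. Number 1 alone held 21.13% of the members' summed S7–11 CPM, the first 5 held 46.35%, the first 10 held 64.74% and the first 20 held 81.55%. Without numbers 1 and 2 the members' share was still 3.00% and 3.01% at S7–11, against 0.181% and 0.179% at S1–4, and it ended lower, with 0.113% and 0.112% in the S24–30 libraries. At S7–11, 11 members had at least 1000 CPM, 38 at least 100 CPM and 175 at least 10 CPM, with a median of 28.8 CPM. Per length, the members' S7–11 levels ran from 1.91 to 2874 TPM with a median of 27.3 TPM, and 9 members had at least 1000 TPM. Of the first 20 members by CPM, 15 were also among the first 20 by TPM. Number 108 followed numbers 1 and 9 by TPM at 2461 TPM although it had 24.6 CPM, and its transcript is 194 bases long, a length at which the effective length behind TPM is very small. It was singled out after its values were seen.

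Number 1 was the most abundant member on both scales, with 2874 TPM at S7–11 from a single transcript of 2842 bases. Its level was 786.7 and 784.3 CPM in the S1–4 libraries, 403.7 and 383.3 at S5–6, 9065 and 8967 at S7–11, 5355 and 5287 at S14, 3513 and 3526 at S17, 2274 and 2308 at S21–23, then 1449 and 1479 at S24–30. It was thus present from the first stages and still had 16.2% of its S7–11 level at the end. From S1–4 to S5–6 its log2 fold change was -0.54 (SE 0.033), under the size that is called below, and it was -0.30 with DESeq2 size factors and -0.997 with total counts.

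Number 2 had a similar course. It stood at 345.3 and 350.7 CPM at S1–4, 232.8 and 225.4 at S5–6, 3593 and 3616 at S7–11, 2469 and 2474 at S14, 1606 and 1630 at S17, 1073 and 1125 at S21–23, then 633.9 and 644.1 at S24–30. At S24–30 it had 17.7% of S7–11, so numbers 1 and 2 ended much higher than numbers 3 to 6, which had 0.465% to 1.16%. Its change from S1–4 to S5–6 had no sure direction, with a log2 fold change of -0.14 (SE 0.032) that became 0.09 with DESeq2 size factors and -0.60 with total counts.

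Number 3, TRINITY_GG_54191_c0_g1, was already low at S17. Its level was 180.8 and 195.9 CPM at S1–4, 211.6 and 206.9 at S5–6, 2840 and 2942 at S7–11, 1080 and 1103 at S14, 102.1 and 105.5 at S17, 56.9 and 62.2 at S21–23, then 33.9 and 33.2 at S24–30. As a fold, the largest step down between neighbouring time-points came between S14 and S17, after which 3.59% of the S7–11 level was left.

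Numbers 4, 5 and 6 held on through S14 and ended almost at nothing. Number 4 had 138.9 and 140.8 CPM at S1–4, 148.1 and 139.1 at S5–6, 2228 and 2218 at S7–11, 1533 and 1531 at S14, 531.6 and 520.7 at S17, 128.0 and 127.5 at S21–23, then 14.8 and 13.4 at S24–30. Number 5 had 154.8 and 155.6 CPM at S1–4, 136.5 and 135.4 at S5–6, 2053 and 2024 at S7–11, 1760 and 1721 at S14, 1004 and 961.9 at S17, 405.8 and 387.4 at S21–23, then 11.3 and 10.01 at S24–30. At S14 they kept 68.9% and 85.4% of their S7–11 level, and at S24–30 they kept 0.633% and 0.523%. Number 6, TRINITY_GG_57843_c0_g1, had 86.1 and 82.6 CPM at S1–4, 155.4 and 159.0 at S5–6, 2036 and 2006 at S7–11, 1793 and 1735 at S14, 410.5 and 383.3 at S17, 79.3 and 76.0 at S21–23, then 9.63 and 9.16 at S24–30. In these 6 members no library of S7–11 overlapped with any other time-point, which the rule makes likely.

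**Figure D2:**
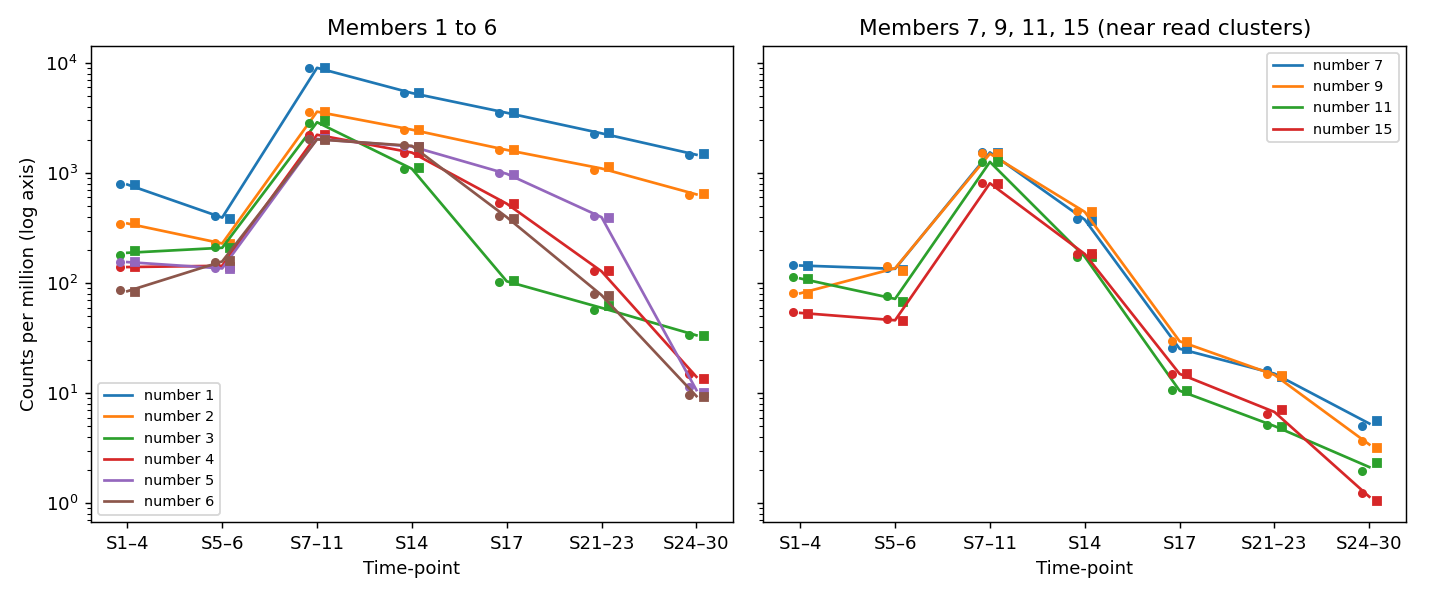
CPM (log axis) at the 7 time-points for members 1 to 6 (left) and for members 7, 9, 11 and 15 (right); circles and squares are replicates 1 and 2 and lines join their means. Numbers 1 and 2 end at 16.2% and 17.7% of S7–11, while the 4 members on the right are already at 0.835% to 1.98% at S17.

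Most members were detected before S7–11, at low levels. The median member had 1.20 CPM at S1–4 and 1.30 CPM at S5–6, which were 4.30% and 4.68% of its S7–11 level. At least 1 CPM was reached by 109 members at S1–4 and by 114 at S5–6, and no member had 0 counts in all 4 of these libraries. The median level at S7–11 was 22.9 times that at S1–4 and 21.3 times that at S5–6, over the 199 members with any count at each. The other 1671 genes that were highest at S7–11 and at least as abundant as the last member had medians of 37.4% of S7–11 at S1–4 and 19.5% at S5–6, a difference that the rule itself makes.

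The step from S1–4 to S5–6 asks whether the members' levels had begun to move before S7–11. The rule holds both time-points at least 10 times under S7–11 but does not use the difference between them, so this step was tested, with edgeR's quasi-likelihood test fitted on all 14 libraries and Benjamini-Hochberg adjustment over 29223 genes. A gene was called at an absolute log2 fold change of at least 1.5 and an adjusted p of at most 0.001, and all 200 members passed the filter on low counts. Of the members, 21 rose (10.5%, against 6.14% of all genes tested) and 2 fell (1.0%, against 7.69%). Since the rule keeps members low at S1–4, the small number that fell is in part set by the choice of members, and the shares of all genes are given as background only. The members' median log2 fold change was 0.64 and that of all genes was 0.00, with 148 members above 0 and 52 below. These counts by sign hold for the main fit and were not made under other scalings. The calls moved with the scaling: with total counts 10 members rose and 6 fell, and with DESeq2 size factors 33 rose and 2 fell. Those of all 29223 genes moved too: 833 rose and 3858 fell with total counts, and 2536 rose and 1648 fell with size factors. In the main fit these were 1795 and 2248. The median of all genes shifted to -0.38 with total counts and to 0.12 with size factors, and relative to it the members' median was 0.56 and 0.76. Leaving out replicate 1 of S5–6 gave 4 members that fell in place of 2.

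None of the rising members was among numbers 1 to 20, the first by CPM at S7–11, although number 6 was called with DESeq2 size factors (log2 fold change 1.59, against 1.36). Per length, number 89, singled out after its values were seen, was both a riser and among the first 20 members, with 359 TPM at S7–11. The risers' median level was 0.450 CPM at S1–4, 1.61 CPM at S5–6 and 30.0 CPM at S7–11. The lowest-numbered was number 21, TRINITY_GG_117498_c0_g1, a gene with 1 transcript of 2412 bases. It had 8.03 and 8.45 CPM at S1–4, 16.9 and 17.6 at S5–6, 345.4 and 339.2 at S7–11, 90.8 and 93.2 at S14, 64.1 and 58.9 at S17, 39.4 and 40.0 at S21–23, then 0.826 and 1.05 at S24–30. Both S5–6 libraries lay above both S1–4 libraries, with a log2 fold change of 1.52 (SE 0.069, edgeR adjusted p = 6.75e-11). This lies just past the limit of 1.5: the log2 fold change was 1.06 with total counts, 1.497 without replicate 1 of S1–4 and 1.48 without replicate 2 of S5–6, each under it. Number 23, TRINITY_GG_138005_c0_g1, had 7.79 and 7.03 CPM at S1–4, 18.1 and 18.5 at S5–6, 282.6 and 274.4 at S7–11, 132.8 and 136.4 at S14, 24.3 and 21.2 at S17, 13.7 and 15.2 at S21–23, then 3.03 and 3.13 at S24–30. Its log2 fold change from S1–4 to S5–6 was 1.77 (SE 0.073, edgeR adjusted p = 2.28e-11), and 1.31 with total counts, where it was no longer called. Both members were nearly gone at the last time-point.

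The 3 largest called rises were in members with few early counts. Number 183 had no count in either S1–4 library and 9.58 and 10.9 estimated counts at S5–6, or 0.232 and 0.256 CPM. Against a floor of 3 counts over both S1–4 libraries (0.0319 CPM) it was at least 7.63-fold higher at S5–6, and at S7–11 it reached 7.97 and 9.67 CPM. Its call rested on these few counts: the edgeR adjusted p was 0.000167, and 0.0017 without replicate 1 of S1–4, 0.0018 without replicate 2 of S1–4 and 0.0013 without replicate 2 of S5–6. Number 152 went from 0.0430 and 0.126 CPM at S1–4 to 1.21 and 0.966 at S5–6 and 14.4 and 14.6 at S7–11, a first step of 4.09 on the log2 scale (SE 0.34, edgeR adjusted p = 7.55e-08). Number 140 went from 0.159 and 0 CPM at S1–4 to 0.723 and 0.480 at S5–6 and 17.9 and 17.2 at S7–11, a first step of 3.41 (SE 0.67, edgeR adjusted p = 0.000535). That call was lost with total counts (adjusted p = 0.0017) and without replicate 2 of S1–4 (0.0038), replicate 1 of S5–6 (0.0081) or replicate 2 of S5–6 (0.0013). Numbers 183 and 140 had under 30 counts in each S1–4 and S5–6 library.

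The 2 members called lower before their peak were neighbours in abundance. At S5–6 they had few counts, 5 and 3 for number 114 and 15 and 10 for number 115. Number 114 had 1.85 and 1.31 CPM at S1–4, 0.121 and 0.0707 at S5–6, and then 23.8 and 23.1 at S7–11. Its level was 11.96 and 10.3 CPM at S14, 0.869 and 1.13 at S17, 0.674 and 0.960 at S21–23, then 0.312 and 0.504 at S24–30. From S1–4 to S5–6 it fell by 3.56 on the log2 scale (SE 0.40, edgeR adjusted p = 2.30e-06). Number 115 had 1.89 and 2.17 CPM at S1–4, 0.363 and 0.236 at S5–6, 22.5 and 23.7 at S7–11, 3.58 and 3.85 at S14, 2.65 and 3.16 at S17, 6.16 and 7.21 at S21–23, then 4.31 and 3.97 at S24–30. It fell by 2.30 (SE 0.24, edgeR adjusted p = 1.07e-06) before the peak, and its means after S17 were above that at S17. In both members the S5–6 libraries lay below the S1–4 libraries, so the level passed through a minimum before the peak.

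**Figure D3:**
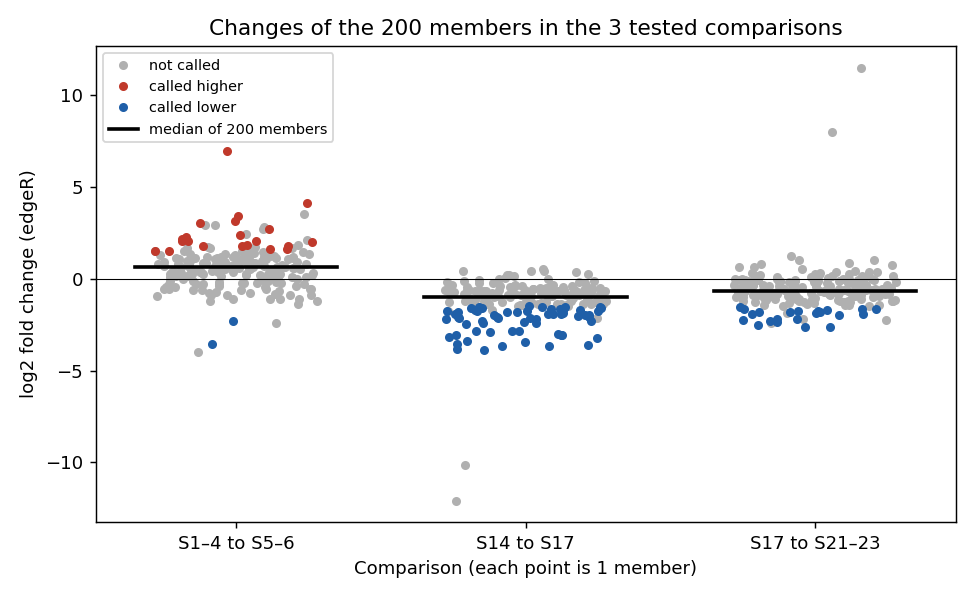
The log2 fold change (y axis) of each of the 200 members in the 3 tested comparisons (x axis; horizontal position within a column has no meaning); red points were called higher, blue points called lower, and black lines are the members' medians. The medians are 0.64, -1.02 and -0.66; the points beyond 5 in size belong to members with libraries at 0 counts.

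After S7–11 the members' levels parted. Their median level was 47.5% of S7–11 at S14, 20.3% at S17, 13.0% at S21–23, then 4.85% at S24–30, while the middle 50% of members ran from 28.4% to 69.0% at S14 and from 7.42% to 33.9% at S17. The mean was first under 50% of S7–11 at S14 in 109 members, at S17 in 78, at S21–23 in 9, then at S24–30 in 4, the last being set by the rule's limit on S24–30. The 109 had medians of 29.6% at S14, 8.12% at S17, then 1.81% at S24–30. The 78 that passed 50% at S17 had medians of 71.7% at S14, 32.1% at S17, then 12.6% at S24–30. Of the 1671 other abundant genes highest at S7–11, 127 were under 50% at S14, 501 first at S17, 169 first at S21–23, 290 first at S24–30 and 584 at no time-point.

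In most members each later mean was below the one before. In 123 members the mean was lower at every step from S14 to S24–30. The rule's limit on S24–30 favours such a course, and this count was not made over other genes. The mean was higher at S17 than at S14 in 6 members, higher at S21–23 than at S17 in 53, and higher at S24–30 than at S21–23 in 31. At the extremes, 8 members were already under 10% of S7–11 at S14 and 12 still held at least 90% there, 31 were under 5% at S17, and 60 were under 1% at S24–30.

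The members at both ends were picked out after their values were seen. Number 118 was the lowest at S14, with 4.47% of its S7–11 level: it had 21.7 and 22.7 CPM at S7–11 and 0.894 and 1.09 at S14. Elsewhere it had few counts, with at most 0.5245 CPM in any library of another time-point. Number 83 had 35.7 and 34.3 CPM at S7–11 against 2.88 and 2.80 at S5–6 and 2.11 and 2.43 at S14, so that its high level was seen at a single time-point. At the other end, number 27 had 163.9 and 163.4 CPM at S7–11, 139.7 and 138.8 at S14, 154.0 and 150.3 at S17, 157.1 and 142.6 at S21–23, then 44.4 and 36.5 at S24–30. It kept 91.6% at S21–23, then 24.7% at S24–30, close to the limit of the rule. Numbers 20, 36 and 168 also first passed under 50% at S24–30, with 50.7%, 53.8% and 65.0% left at S21–23.

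**Figure D4:**
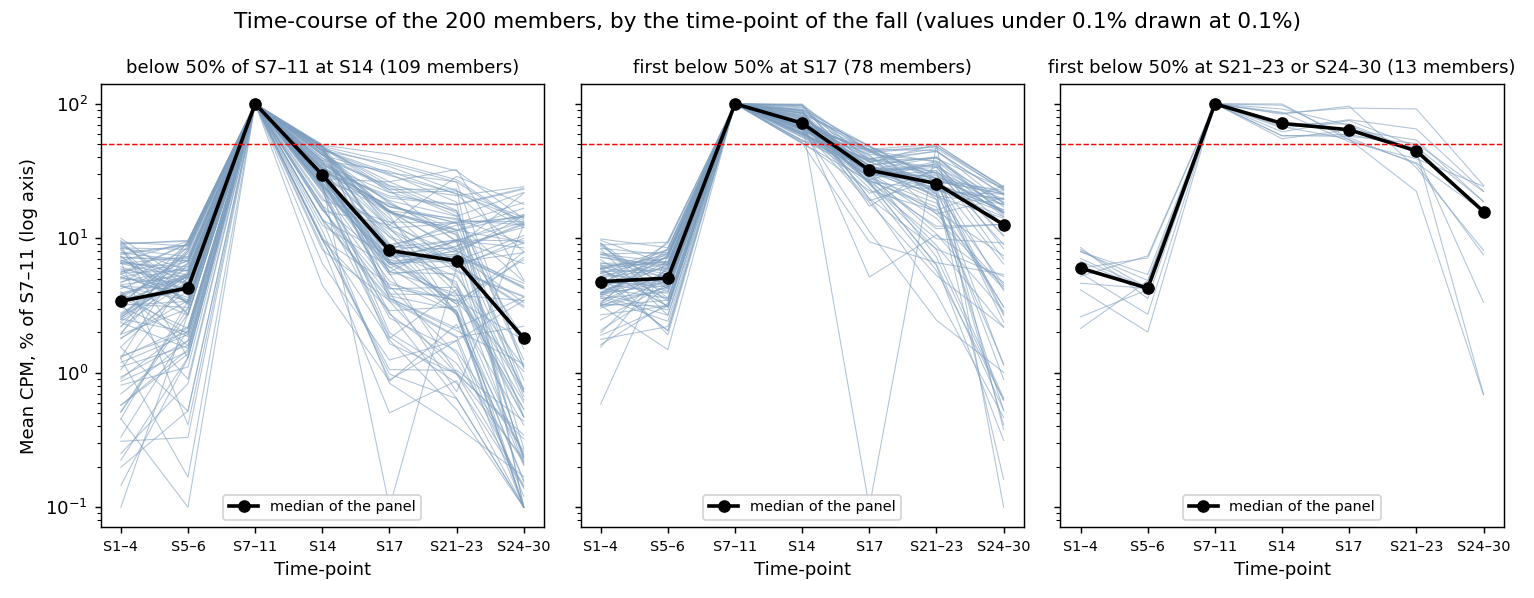
Mean CPM as a percentage of the S7–11 mean (log axis) at the 7 time-points for each member (thin lines) and the median of each panel (black), split by the first time-point under 50% (dashed red line): S14 (109 members), S17 (78) and S21–23 or S24–30 (13). The left panel has a median of 8.12% at S17, against 32.1% in the middle panel.

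The step from S14 to S17 was tested in the same fit, since the rule does not use the order of these time-points. The rule does fix a fall of at least 4-fold from S7–11 to S24–30, so the downward direction of the later steps is in part set by the choice of members. From S14 to S17, 62 members fell (31.0%, against 1.17% of all genes tested) and 0 rose (against 1.05%). The median log2 fold change was -1.02 for the members and -0.06 for all genes, with 190 members below 0 and 10 above. Without the fold limit, at an adjusted p of at most 0.001, edgeR had 125 members lower and 1 higher. Over all 29223 genes it had 2650 lower and 2010 higher. DESeq2's Wald test called 57 members lower and 0 higher, against 308 lower and 444 higher of all 29223 genes. Of numbers 1 to 20, 10 fell. The libraries of S14 and S17 did not overlap in any of the 62, which the limits of a call on these libraries nearly ensure. Of the 62, 51 were members already under 50% at S14.

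The 62 falling members went from a median of 28.8% of S7–11 at S14 to 5.66% at S17. The largest called falls were those of numbers 146, 11 and 9, the first of which rested on 5 and 4 counts at S17. Number 146, a short gene of 350 bases in its main transcript, had 0.194 and 0.190 CPM at S1–4, 0.218 and 0.401 at S5–6, 16.0 and 16.1 at S7–11, 1.33 and 1.47 at S14, 0.0945 and 0.0673 at S17, and 0.169 and 0.112 at S21–23. At S24–30 it had 0 counts in both libraries, which allows up to 0.0288 CPM over both at 3 counts. From S14 to S17 it fell by 3.87 on the log2 scale (SE 0.35, edgeR adjusted p = 1.46e-06). Number 11 had 112.6 and 107.8 CPM at S1–4, 75.7 and 68.0 at S5–6, 1264 and 1257 at S7–11, 172.7 and 174.3 at S14, 10.6 and 10.4 at S17, 5.10 and 4.95 at S21–23, then 1.96 and 2.30 at S24–30, and from S14 to S17 it fell by 3.82 (SE 0.060, edgeR adjusted p = 1.70e-14). Number 9 had 82.0 and 79.5 CPM at S1–4, 142.7 and 129.7 at S5–6, 1507 and 1484 at S7–11, 447.2 and 439.1 at S14, 30.0 and 29.3 at S17, 15.0 and 14.3 at S21–23, then 3.69 and 3.15 at S24–30, and it fell by 3.68 (SE 0.065, edgeR adjusted p = 4.02e-14). Number 3 fell by 3.18 (SE 0.050, edgeR adjusted p = 1.70e-14) and number 6 by 1.93 (SE 0.053, edgeR adjusted p = 4.13e-12). Numbers 3, 9 and 11 thus went from over 100 CPM at S14 to 3.59%, 1.98% and 0.835% of S7–11 at S17.

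From S17 to S21–23, 22 members fell (11.0%, against 0.934% of all genes tested) and 0 rose (against 2.42%), under the same limit on reading the direction. The median log2 fold change was -0.66 for the members and 0.00 for all genes, with 166 members below 0 and 34 above. Without the fold limit, at an adjusted p of at most 0.001, edgeR had 82 members lower and 1 higher. Over all 29223 genes it had 2136 lower and 1605 higher. DESeq2's Wald test called 25 members lower and 1 higher, against 323 lower and 861 higher of all 29223 genes. The 22 had kept a median of 65.5% of S7–11 at S14 and 19.0% at S17, and had 5.51% at S21–23. Libraries of S17 and S21–23 did not overlap in any of them, which the limits of a call again nearly ensure. The S21–23 libraries were the least alike of any time-point over all genes, with a chi-square per degree of freedom of 13.02 against 3.59 for the closest pair.

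The largest falls in this step were those of numbers 67, 165 and 6. Number 67 had 1.72 and 1.12 CPM at S1–4, 1.57 and 1.46 at S5–6, 44.3 and 45.0 at S7–11, 11.5 and 11.6 at S14, 1.83 and 3.06 at S17, 0.450 and 0.446 at S21–23, then 0.147 and 0.141 at S24–30. From S17 to S21–23 it fell by 2.63 on the log2 scale (SE 0.27, edgeR adjusted p = 3.40e-06). Number 165 had 12.1 and 13.4 CPM at S7–11, 5.38 and 6.03 at S14, 1.87 and 1.94 at S17, and 0.375 and 0.312 at S21–23, a fall of the same size with less precision: it fell by 2.63 (SE 0.40, edgeR adjusted p = 0.000149). That call was lost when any of the 4 libraries of S17 and S21–23 was left out (adjusted p from 0.0010 to 0.0024). Number 6 fell by 2.53 (SE 0.055, edgeR adjusted p = 3.65e-13) and number 4 by 2.22 (SE 0.051, edgeR adjusted p = 4.93e-13). Number 6 was called lower in both steps and number 4 in the second alone, while the difference between their steps was not tested.

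In the 2 later steps 11 members were called lower in both (5.5%, against 0.154% of all genes tested). A further count gave 73 called lower in at least 1 step and 127 in neither. Only the first of these counts was made over all genes. A member that was not called may still have fallen by less than the limits. From S14 to S17 the log2 fold change was below 0 in 190 members and above 0 in 10. From S17 to S21–23 it was below 0 in 166 and above 0 in 34. The 11 are 50% of the members that fell from S17 to S21–23 and 17.7% of those that fell from S14 to S17. These steps share the S17 libraries, so their overlap is a count only. Of the 21 members that rose from S1–4 to S5–6, 9 also fell from S14 to S17, which is 42.9% of the former and 14.5% of the 62 latter. Of all members, 31.0% fell from S14 to S17. This joint count was not made over all genes, and a link between the 2 steps was not tested. Numbers 23, 152 and 183 were among the 9. Number 152 fell by 1.53 on the log2 scale (SE 0.16, edgeR adjusted p = 3.53e-06) and number 183 by 1.78 (SE 0.30, edgeR adjusted p = 0.000395), both close to the limit of 1.5.

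Some members had nearly consecutive IDs. Trinity numbers the clusters of reads that it assembles on the genome, and 53 members (26.5%) had another member within 10 cluster numbers, against 2.78% of other genes with a member that near. In 9 read clusters 2 members were split from 1 cluster, which took in 18 members. Whether near numbers are neighbours on the genome was not tested, and split or near-identical assemblies can share reads. These runs were picked out after their values were seen.

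Numbers 7, 9, 11 and 15 formed a run within 18 cluster numbers and all 4 were called lower from S14 to S17. Number 7 had 146.3 and 142.5 CPM at S1–4, 138.5 and 131.0 at S5–6, 1564 and 1514 at S7–11, 383.2 and 369.9 at S14, 25.5 and 25.2 at S17, 16.2 and 13.9 at S21–23, then 5.03 and 5.57 at S24–30. Number 15 had 54.7 and 52.5 CPM at S1–4, 46.7 and 45.2 at S5–6, 819.5 and 793.9 at S7–11, 183.8 and 183.7 at S14, 15.0 and 14.96 at S17, 6.43 and 7.07 at S21–23, then 1.23 and 1.06 at S24–30. The 4 members kept 13.8% to 29.6% of S7–11 at S14 and 0.835% to 1.98% at S17. They differed before the peak: from S1–4 to S5–6 the log2 fold change was 1.21 for number 9 (SE 0.060) and -0.16 for number 11 (SE 0.052), neither of which was called. With DESeq2 size factors these were 1.45 and 0.08, and with total counts 0.75 and -0.62, so that number 11 had no sure direction. Per length they ranged from 638 TPM for number 15 to 2708 TPM for number 9 at S7–11.

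In other runs the members' courses were alike or unlike. Numbers 3 and 10 came from 1 read cluster and kept 37.8% and 37.2% of S7–11 at S14 and 3.59% and 3.85% at S17, but at S24–30 number 10 still had 44.8 and 42.5 CPM, or 3.44%, against 1.16% for number 3. Numbers 4 and 5, with number 38, lay within 8 cluster numbers, and all 3 passed under 50% at S17, with 23.7% to 48.2% left. In the run of numbers 13, 17, 25 and 26, the share left at S17 spread from 9.05% to 69.2%. In the run of numbers 30, 41, 112 and 136 it spread from 2.74% to 40.9%. Near cluster numbers did not go with 1 common course in these 2 runs.

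By their transcripts the members looked like other genes. A single transcript was listed for 112 members (56.0%), against 58.2% of the 23763 genes with at least 1 CPM at a time-point. The other 88 had 2 or more, and 23 of them had 5 or more. The main transcript, the one with most counts at S7–11, had a median length of 1570.5 bases, and 33 members were under 500 bases. For those 23763 genes the median was 1319 bases, with the main transcript taken as the one with most counts over all time-points. Among members with several transcripts and at least 20 counts, the main transcript at S7–11 was also the main one in 67 of 83 members at S1–4, 71 of 84 at S5–6, 81 of 88 at S14, 78 of 86 at S17, 72 of 84 at S21–23, then 54 of 65 at S24–30. So 16 of 83 had another leading transcript in the first libraries. Fractional counts, which arise where the quantification splits reads between transcripts, occurred in 167 members, and in 81 of the 112 with a single transcript, which shared reads with other genes. Values of these members are less certain.

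Replicate agreement over the members differed between time-points. The median absolute log2 ratio of the libraries was 0.048 for the members at S7–11, where the rule took abundant genes, against 0.112 for all genes of at least 1 CPM. Where the members were scarce the order was the reverse, with 0.238 against 0.121 at S1–4 and 0.205 against 0.137 at S5–6. At S7–11, in 198 members the libraries lay within 25% of each other. In 193 members both S7–11 libraries lay above every library of the other time-points, which largely restates the rule that chose them. The exceptions in replicate agreement were numbers 154 and 174, singled out after their values were seen. Number 154 was listed at 0 and 28.2 CPM in the S7–11 libraries, 20.5 and 0 at S14, 0 and 14.0 at S21–23, and 0 in all 4 libraries of S17 and S24–30. Number 158, from the same read cluster, was steady at 13.5 and 13.7 CPM at S7–11, and the sum of both was 13.5 and 42.0 CPM. Number 154 entered the members through 1 library, and its fitted changes carry no weight here. Number 174 had 8.52 and 12.02 CPM at S7–11, 0 in both libraries at S17, and 0 and 1.249 at S21–23.

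The limits of the rule lie within a continuous range. The last member, number 200, had 7.26 and 7.85 CPM at S7–11, a mean of 7.55 CPM, and the first gene outside had a mean of 7.30 CPM. Number 200 had 0 and 0.105 CPM at S1–4, 0.0967 and 0.165 at S5–6, 2.16 and 2.00 at S14, 0.529 and 0.556 at S17, 0.600 and 0.826 at S21–23, then 0.881 and 1.37 at S24–30. Among members the lowest fold of S7–11 over S1–4 was 10.001, and the highest among abundant genes failing that limit alone was 9.71. The same values were 10.3 and 9.78 for S5–6, and 4.05 and 3.90 for S24–30. These limits alone kept out 68, 23 and 146 genes.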

How the data were processed

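The authors placed paired-end reads of poly-A selected libraries on the genome (Phaw 5.0) with STAR 2.7.2b, assembled them with Trinity, and quantified transcripts with Salmon 0.14.1, per the study's methods and processing notes. The deposited tables give, per transcript, estimated counts and TPM. Effective length was the length minus 250 for 95.73% of transcripts and identical in all 14 libraries, which bears on the TPM of short transcripts.

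Counts and TPM were summed per Trinity gene. CPM used library totals. The 200 members, the lists and the tests were chosen with earlier results of these data known. Summed counts were rounded and tested with edgeR 4.0.16 (R 4.3.3; TMM, quasi-likelihood, 1 model of 7 time-points, genes with at least 10 normalized counts at a time-point), and the code was tested on simulated data. SE is the log2 fold change divided by the root of F. The members given by number were 1 to 5, the last, and the 3 largest called per direction and comparison; IDs were given for the 2 lowest-numbered risers of S1–4 to S5–6 and fallers of S14 to S17. Numbers outside this rule were chosen after their values were seen. DESeq2 1.42.0 and other alternatives are given in the closing section. Small RNA files were not used here.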

Additional observations from a re-analysis of the deposited data

How the results depend on the processing

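For 15 of the calls of members given by number, 120 values under alternatives kept their side of the thresholds and 15 lost it. The lost values were those of numbers 21, 23, 140, 165 and 183 given above, with no change of direction. Other calls given by number were not followed individually, among them those of numbers 7, 15, 152 and 183 from S14 to S17. Among members not called from S1–4 to S5–6, only numbers 1 to 7, 9, 11 and 15 were followed individually across the scalings. Of these, numbers 2, 5, 7, 11 and 15 changed direction there with the scaling. Other members with changes near 0 may have done so too. From S1–4 to S5–6 the members called higher numbered 33 with DESeq2 size factors, 10 with total counts, 64 by adjusted p alone and 40 by DESeq2's Wald test, against 21, and those called lower numbered 6 with total counts and 10 by adjusted p alone, against 2. Over all 29223 genes the calls higher were 2536, 833, 4903 and 2673 in that order, against 1795. Those lower were 3858 with total counts and 4993 by adjusted p alone, against 2248. Of the members, all 21 were among the 33 and the 40, and the 10 with total counts were among the 21. From S14 to S17, adjusted p alone gave 125 members lower and 1 higher, against 62 and 0. Over all genes it gave 2650 lower and 2010 higher. From S17 to S21–23 it gave 82 members lower and 1 higher, against 22 and 0, and 2136 lower and 1605 higher over all genes. The Wald test also gave 1 member higher in that step. Leaving out 1 library gave 16 to 20 higher and 2 to 4 lower in the first step, 50 to 53 lower in the second and 18 to 24 lower in the third, with 0 higher in both later steps. The cause of these moves was not tested, apart from the fold limit that adjusted p alone drops.

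Replicate numbers did not pair the libraries: over 21 pairs of time-points the correlation of deviations ran from -0.012 to 0.17, with 1 over 0.1. With a replicate block the calls were 20 higher and 2 lower, 60 lower, and 22 lower.

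The rule gave 384 genes on CPM, 222 on TPM, 112 at 20 and 8 times, 407 on replicate 1 alone and 393 on replicate 2 alone. An alternative chosen after seeing the data, TMM-scaled CPM, gave 464, with 159 of its first 200 among the members. Of the first 200 on TPM, 107 were members. At 25% of S7–11 in place of 50%, 36 members were first under it at S14, 35 at S21–23 and 54 at S24–30, and with TMM scaling 16 were first under 50% at S21–23. With 2 libraries a time-point and few early counts, small early changes of low members were not detectable at this depth.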
